A study of Mus musculus with 2 samples.

Results

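Efferocytosis, the removal of dying cells by phagocytes, was examined here through 10 genes that encode its receptors and bridging molecules: Gas6, Pros1, Mfge8, Mertk, Axl, Itgav, Itgb5, Stab1, Mrc1 and Cd36. The genes were taken from a list of names, and all 10 were found among the 32285 genes measured. Single-cell RNA-seq had been carried out on AT3 tumors, a mouse mammary carcinoma line placed in the mammary fat pad of female mice aged 6 to 12 weeks and collected on day 30. The control library, Pgd fl/fl, came from mice with a floxed Pgd gene and no Cre, and the other library, Pgd fl/fl LysM Cre, from mice that also carried Cre in the Lyz2 (lysozyme M) locus, so that Pgd, which encodes the pentose phosphate pathway enzyme 6PGD, was deleted in Lyz2-expressing myeloid cells. Each genotype was 1 library of 10 pooled mice, so genotype, pool and library cannot be told apart, no test between genotypes was possible, and each interval given below covers counting error only. The question addressed was how these transcripts were distributed over the myeloid cells of the tumor and where their levels differed between the libraries. The libraries are called fl/fl and LysM Cre here, and paired values are given in that order.

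Dying cells expose phosphatidylserine on their surface. Gas6, protein S (Pros1) and MFG-E8 (Mfge8) are soluble proteins that bind it and bridge the dying cell to a receptor on the phagocyte: Gas6 and protein S to the TAM receptor tyrosine kinases, which include Mertk and Axl, and MFG-E8 to the integrin made of the alpha-v chain (Itgav) and the beta-5 chain (Itgb5) or the beta-3 chain. Stabilin-1 (Stab1) binds phosphatidylserine directly. The mannose receptor (Mrc1) takes up glycoproteins and is a common marker of resident and alternatively activated macrophages, and CD36 is a scavenger receptor for oxidized lipids.

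The promoter regions of Gas6 and Mertk are shown because this ligand and its receptor are central to the macrophage results. They are the 250 bases before the RefSeq start of each gene in GRCm38.p6, the build (mm10) to which the reads were aligned. The capitals mark GGGCGG, the core of the GC box, on either strand. The Gas6 region is chr8:13494536-13494785 on the minus strand, and the Mertk region is chr2:128698665-128698914 on the plus strand.
Gas6: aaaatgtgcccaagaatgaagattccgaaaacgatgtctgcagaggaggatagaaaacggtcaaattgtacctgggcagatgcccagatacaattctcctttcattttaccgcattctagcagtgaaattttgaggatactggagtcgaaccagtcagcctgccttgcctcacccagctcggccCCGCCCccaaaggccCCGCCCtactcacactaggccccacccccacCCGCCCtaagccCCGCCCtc
Mertk: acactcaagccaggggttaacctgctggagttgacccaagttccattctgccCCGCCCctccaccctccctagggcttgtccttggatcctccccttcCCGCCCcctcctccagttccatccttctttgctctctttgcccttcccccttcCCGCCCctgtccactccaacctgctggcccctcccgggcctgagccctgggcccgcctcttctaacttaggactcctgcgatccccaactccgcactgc
The motif occurred 4 times in the Gas6 region and 3 times in that of Mertk. It was found in the same window of 8 of the 10 members, Itgav and Stab1 being the exceptions, and in 32.7% of 32851 RefSeq windows of this length. For Axl, Itgav, Stab1 and Cd36 the window preceded a start inside the gene span given below, and so lay partly or wholly within that span. Neither CACGTG, the E-box, nor TGACNNNGC, the core of the antioxidant response element, was found in the window of any member, against 6.02% and 10.2% of all windows. A match of letters is a description and not evidence of binding.

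The libraries held 3728 and 3014 barcodes with 27245625 and 28827045 unique molecular identifiers (UMIs, counted RNA molecules), and shared no barcode. After filtering, 3565 fl/fl and 2798 LysM Cre cells were kept, with a median of 5554 and 7926 UMIs. Cells were clustered without the 10 members and named from marker lists that held none of them. This gave 731 and 729 macrophages, 127 and 331 monocytes, 100 and 137 dendritic cells (DCs, mature DCs and cDC1), 103 and 148 Langerhans-like cells (Cd207, Epcam) and 58 and 72 neutrophils. The labels name a sort for CD45 and also one for CD11b, yet 1568 and 946 T cells and 566 and 35 B cells were present. A small cluster led by Retnla, Fn1 and Lyz1, with 15 and 47 cells, scored about alike for monocytes and other types and was left unnamed. As a check of the labels, Pgd was at 105 and 30.6 CPM (counts scaled to a total of 1000000 UMIs per class) in macrophages. Lyz2, the locus that holds Cre, was there at 3050 and 25.5 CPM. Pgd was also lower in LysM Cre monocytes, at 76.3 and 30.7 CPM, and Langerhans-like cells, at 48.2 and 29.6 CPM. In DCs it was at 24.1 and 21.8 CPM and did not differ beyond counting error. Neither did it in neutrophils, with 9 and 5 UMIs. The share of cells with Pgd deleted was not tested in any class. Lymphocyte RNA was present in the macrophages: 74.97% and 71.7% of them had at least 1 UMI of a T or B cell marker, the 9 T cell markers summed to 647 and 948 CPM and the 7 B cell markers to 575 and 113 CPM. Leaving out the subclusters led by lymphocyte genes kept 576 and 501 macrophages, and leaving out every cell with such a UMI kept 183 and 206. The part of this RNA in the results was not tested, and values without those cells are given beside the results they change most.

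The members were spread over the myeloid populations in distinct patterns. Mertk, Itgb5 and Stab1 were highest in macrophages or in the Retnla-led cells, whereas Mfge8 was highest in Langerhans-like cells and DCs. Mertk was at 49.98 and 70.7 CPM in macrophages, at 6.87 and 9.22 CPM in monocytes and at no more than 1.36 CPM in DCs and Langerhans-like cells. Mfge8 was at 1071 and 1286 CPM in Langerhans-like cells (95% intervals 1016 to 1129 and 1237 to 1336), at 615 and 674 CPM in DCs and at 65.9 and 97.0 CPM in macrophages. These intervals did not overlap between populations in either library. Axl was detected in macrophages at 226 and 198 CPM and in monocytes at 152 and 142 CPM, and at 25.1 CPM or less in DCs and Langerhans-like cells. Mrc1 stood out in the Retnla-led cells at 761 and 992 CPM, against 76.1 and 75.1 CPM in macrophages. Gas6 was low in macrophages, at 10.2 and 30.5 CPM, and higher in the Retnla-led cells, at 130 and 197 CPM, where 14 and 73 UMIs were counted. It was also found in the epithelial cells of the tumor, at 94.8 and 92.3 CPM.

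**Figure D1:**
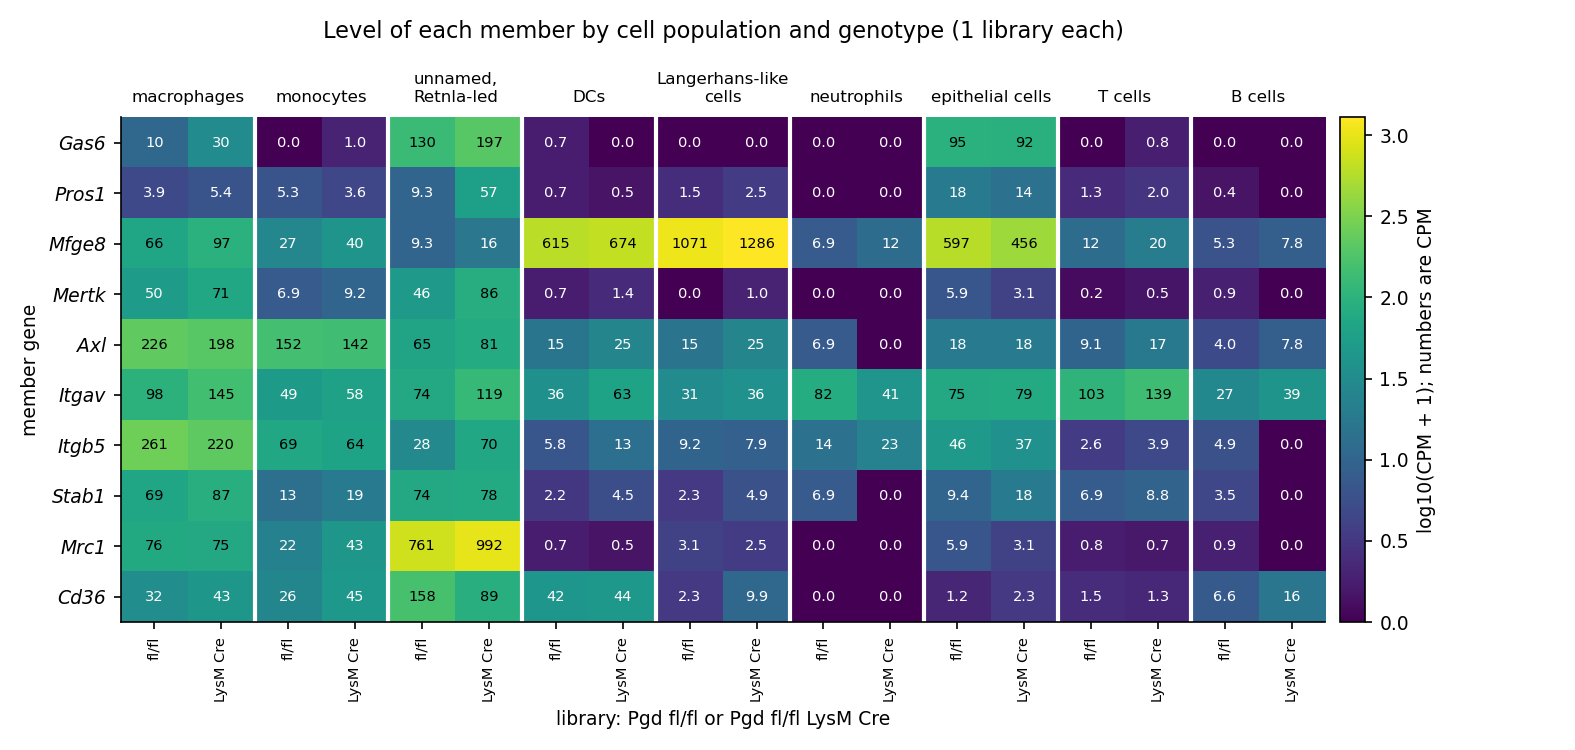
Level of each member (rows) in CPM, by cell population and genotype (columns, 1 library each). The color is log10(CPM + 1) and the printed numbers are CPM. Mfge8 reached 1071 and 1286 CPM in Langerhans-like cells, Mrc1 761 and 992 CPM in the unnamed Retnla-led cells, and Axl 226 and 198 CPM in macrophages.

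Because the depth per cell differed between populations, the share of cells with a UMI was also taken after cells had been thinned to 3000 UMIs. T cells served as a population that should lack most members. Cells with fewer than 3000 UMIs were left out, which kept 691 and 682 macrophages and 1317 and 777 T cells. In macrophages the thinned shares were 53.0% and 46.8% for Itgb5, 44.1% and 40.6% for Axl, 11.7% and 17.2% for Mertk, and 3.04% and 7.04% for Gas6. Without thinning, a Gas6 UMI was present in 9.17% and 24.4% of macrophages and a Mertk UMI in 33.0% and 45.7%. In T cells, with a median of 4852 and 5070 UMIs against 12017 and 13257 in macrophages, Gas6 was seen in 0 of 1317 thinned fl/fl cells, which allows a share of up to 0.228% (3 counts of the total) or 0.280% (the upper Clopper-Pearson bound), and in 0.257% of LysM Cre cells. Mertk was seen there in 0% and 0.129%. The macrophage shares of Gas6, Mertk, Axl, Itgb5, Stab1, Mrc1 and Cd36 thus lay above the T cell level. Itgav was common in T cells as well: 16.2% and 26.0% of thinned T cells had a UMI, against 24.9% and 29.9% of macrophages. The Itgav intervals of the 2 cell types overlapped in LysM Cre only. T cells held 103 and 139 CPM of it, and macrophages 98.4 and 145 CPM. A Pros1 UMI was present in 1.16% and 2.20% of thinned macrophages, against 0.53% and 0.64% of T cells, with intervals that overlapped in both libraries. For Mfge8, 6.95% and 7.63% of thinned macrophages had a UMI, against 3.19% and 4.76% of T cells. In Langerhans-like cells that share was 79.6% and 80.3%.

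**Figure D2:**
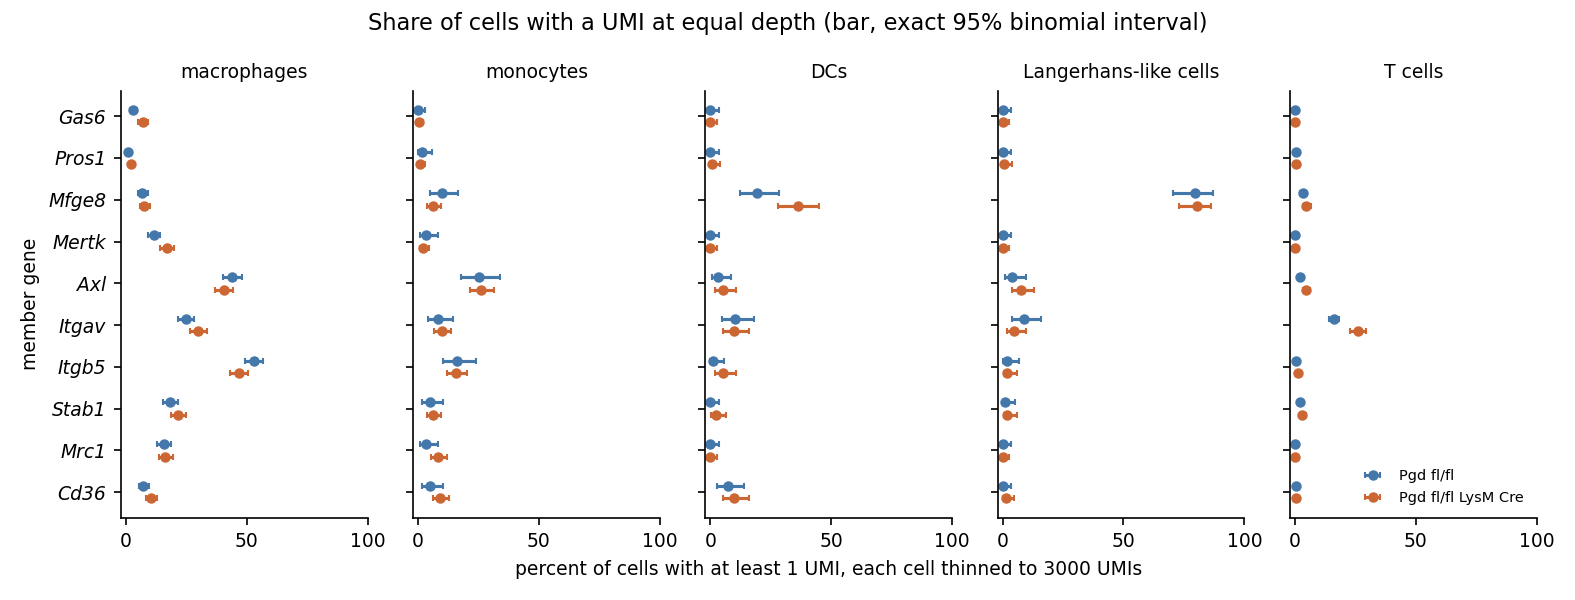
Percent of cells with at least 1 UMI of each member after thinning to 3000 UMIs per cell, in 4 myeloid classes and in T cells. Cells with fewer than 3000 UMIs were left out. Points are the libraries (blue, fl/fl and orange, LysM Cre) and bars are exact 95% binomial (Clopper-Pearson) intervals. Mfge8 was detected in 79.6% and 80.3% of Langerhans-like cells, and Gas6 in 3.04% and 7.04% of macrophages.

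In macrophages Gas6 was higher in LysM Cre, at 30.5 against 10.2 CPM. All 10 members had at least 50 UMIs over both libraries, the minimum used for a call, and Gas6 alone passed 1.5-fold. Of the 10431 genes tested in this class, 5.25% were at least 1.5-fold higher and 2.89% at least 1.5-fold lower in LysM Cre. The count of 1 in 10 members was thus close to the background, while 7 of the 10 ratios were above 0 against 60.4% of all genes. The median log2 ratio (LysM Cre over fl/fl) was 0.45 over the members and 0.07 over all genes.

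Of the bridging molecules, Gas6 (chr8:13465374-13494535) had 92 UMIs in fl/fl and 315 in LysM Cre, a log2 ratio of 1.59 (95% counting interval 1.25 to 1.94). Its ratio ranged from 1.38 to 2.30 over 14 alternative settings. Pros1 (chr16:62854307-62929346), the other TAM ligand, was scarce at 35 and 56 UMIs, or 3.86 and 5.42 CPM, and its interval reached from -0.15 to 1.14. Mfge8 (chr7:79133768-79149060) was counted 597 and 1003 times, for a log2 ratio of 0.56 (0.41 to 0.71). The Mfge8 ratio was not shared by all macrophages and is described with the subclusters.

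Of the TAM receptors, Mertk (chr2:128698915-128803162), which binds both ligands, was higher in LysM Cre, with UMI counts of 453 and 731 and a log2 ratio of 0.50 (0.33 to 0.67). The Mertk ratio did not reach 1.5-fold in the class as a whole. It did so when cells were thinned (0.66), when every cell was given the same weight (0.66), when the subclusters were set to the fl/fl cell shares (0.67), without the cycling cluster (0.61), without cells that had Langerhans markers (0.59), and without cells that had a lymphocyte marker UMI (1.20). Axl (chr7:25756500-25788924), the TAM receptor that binds Gas6 with high affinity, had 2049 UMIs in each library and a log2 ratio of -0.19 (-0.28 to -0.10). The ratios of these receptors of the same family were on opposite sides of 0 with intervals that did not overlap. Without the cells that had a lymphocyte marker UMI, the Axl ratio was 0.03.

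In the class as a whole the integrin chains also went apart. Itgav (chr2:83722303-83806917) was counted 892 and 1498 times, for a log2 ratio of 0.56 (0.44 to 0.68), while Itgb5 (chr16:33829665-33949338) was counted 2362 and 2272 times, giving -0.25 (-0.33 to -0.16). The beta-3 chain Itgb3, the other partner of the alpha-v chain for MFG-E8, was at 2.54 and 5.03 CPM, with 23 and 52 UMIs. In T cells, which do not use the Lyz2 locus, Itgav was also higher in the LysM Cre library, with a log2 ratio of 0.43 (0.29 to 0.56). So were Axl at 0.92 (0.49 to 1.36) and Mfge8 at 0.74 (0.35 to 1.13). Their T cell levels were low, at 9.05 and 17.2 CPM for Axl and 11.7 and 19.6 CPM for Mfge8. The T cells also differed in makeup, as their cluster led by Lef1 and Dapl1 held 476 and 57 cells. The part of this makeup in the T cell ratios was not tested. In NK cells Itgav was at -0.34 (-0.94 to 0.27). The Itgb5 ratio was 0.12 without cells that had a lymphocyte marker UMI.

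Among the remaining receptors, Stab1 (chr14:31139017-31168651) was at 68.5 and 87.2 CPM, with a log2 ratio of 0.35 (0.20 to 0.50). Cd36 (chr5:17781690-17888959) was at 32.1 and 42.9 CPM, with a ratio of 0.42 (0.20 to 0.63). Mrc1 (chr2:14229414-14332023) was at 76.1 and 75.1 CPM, with a ratio of -0.02 (-0.17 to 0.13), and the libraries did not differ beyond counting error. The Cd36 ratio was -0.12 without cells that had a lymphocyte marker UMI.

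**Figure D3:**
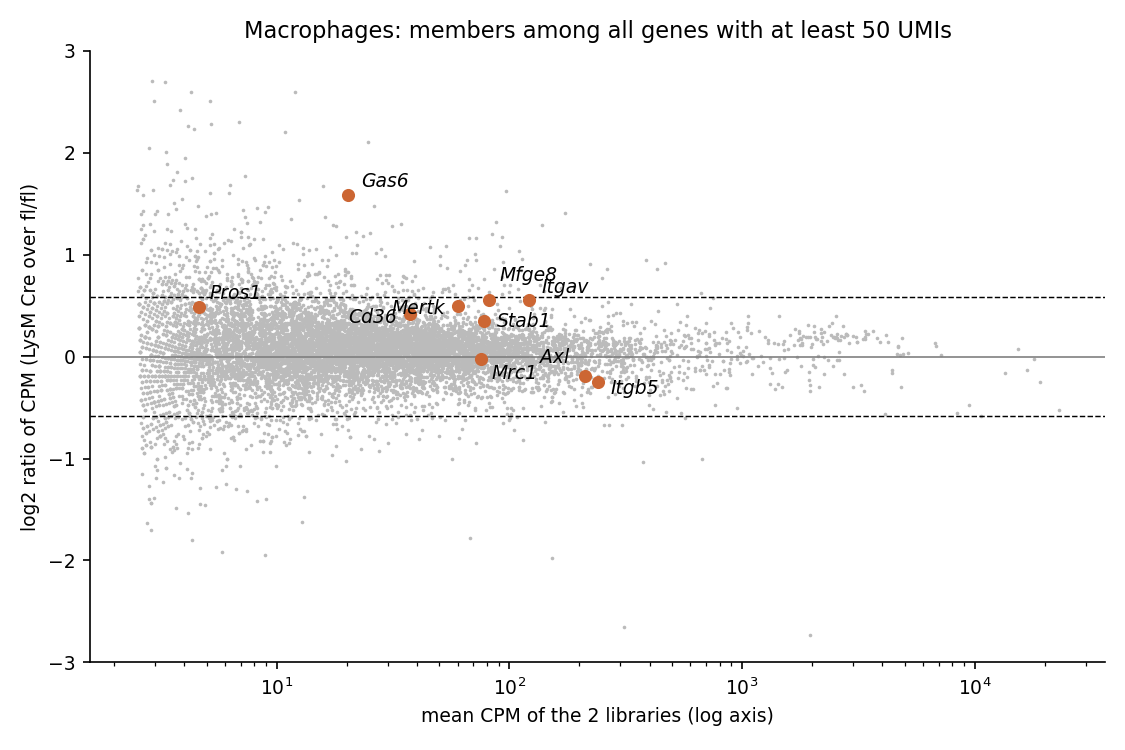
Log2 ratio of CPM (LysM Cre over fl/fl) against mean CPM (log axis) in macrophages, for 10429 genes with at least 50 UMIs and a count in both libraries. Orange points are the members, gray points the other genes and dashed lines 1.5-fold, and 7 genes lie beyond the vertical axis. Gas6, at 1.59, is the only member outside the dashed lines.

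**Figure D4:**
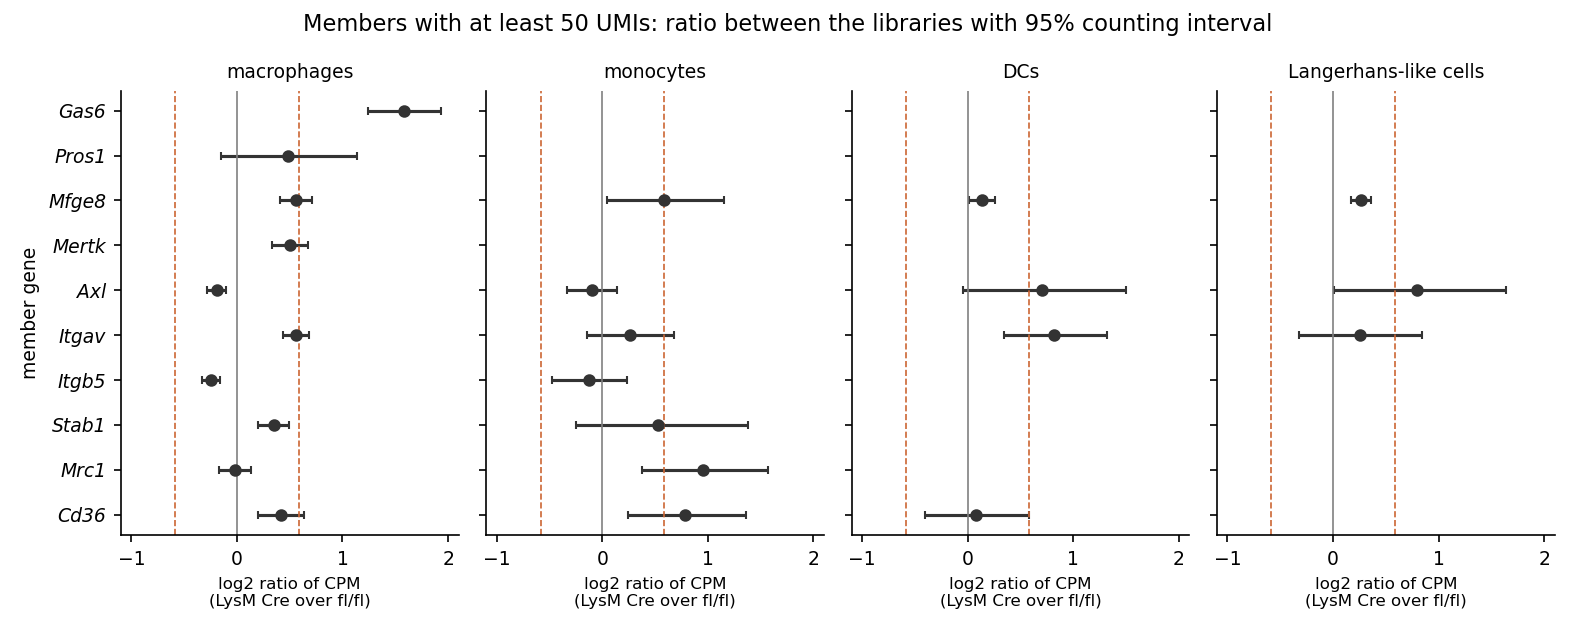
Log2 ratio of CPM (LysM Cre over fl/fl) of each member with at least 50 UMIs, in 4 myeloid classes. Points are the ratios, bars their 95% counting intervals, and dashed lines 1.5-fold in either direction. In macrophages Gas6 stands at 1.59, and Axl at -0.19 and Itgb5 at -0.25 lie below 0.

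Myeloid cells were clustered again to see whether these ratios held within the subclusters that contained the macrophages. Those led by Gzma, Tnfrsf4, Ccl1 and Jchain scored highest for NK, T or B cells. That led by Ighg2b scored highest for Langerhans cells (0.864), against 0.807 for T cells and 0.384 for macrophages, and was left unnamed. Of the 9 subclusters that held nearly all macrophages, Gas6 had 50 UMIs in 3 and was higher in LysM Cre in each of them. In the subcluster led by Hes1 and Ccl12 (192 and 174 cells) Gas6 was at 8.97 and 37.0 CPM, a log2 ratio of 2.04 (1.32 to 2.83). In the subcluster led by the lymphocyte genes Gzma and Cd8a, which also held monocytes, the ratio was 1.26. In that led by Vcam1 and Cxcl1 (208 and 135 cells), with 13 and 35 UMIs below the minimum for a call, it was at 5.65 and 23.6 CPM. The subcluster led by Gpnmb, Mmp12 and Arg1 (51 and 62 cells) had the highest Gas6 level of the macrophage subclusters in both libraries, at 41.3 and 90.8 CPM, and a ratio of 1.14 (0.52 to 1.79). It held 33.7% and 21.9% of the Gas6 UMIs of the class in 6.98% and 8.37% of its cells. In the Retnla-led myeloid subcluster, which held no macrophages of the class and the highest Gas6 level of all myeloid subclusters, Gas6 was at 170.5 and 175 CPM, from counts of 14 and 60, and its ratio was 0.04 (-0.82 to 0.99).

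Mertk differed most in the Vcam1-led subcluster, where it was at 52.6 and 129 CPM, a log2 ratio of 1.29 (0.96 to 1.63). In the Hes1-led subcluster it was at 55.2 and 87.4 CPM, a ratio of 0.66 (0.33 to 1.01). In the Gpnmb-led subcluster the levels were 83.9 and 95.5 CPM, with an interval from -0.30 to 0.68 that held 0. In the cycling subcluster, led by Ighg2b and histone genes and left unnamed (71 and 92 cells), they were 38.5 and 33.3 CPM. The Mertk interval of the Vcam1-led subcluster did not overlap those of the Gpnmb-led and cycling subclusters. Stab1 differed most in the Gpnmb-led subcluster, at 81.2 and 163 CPM, a ratio of 1.01 (0.56 to 1.46), and was at 76.9 and 83.7 CPM in the Vcam1-led subcluster. Mrc1 was higher in the Vcam1-led subcluster, with a ratio of 0.66 (0.28 to 1.04), and lower in the cycling subcluster, with a ratio of -1.09 (-1.55 to -0.63), beside the class value of -0.02. Axl was below 0 in 8 of the 9 subclusters that held nearly all macrophages, from -0.47 to 0.13, and passed 1.5-fold in none of them. Its interval lay wholly below 0 only in the cycling subcluster, at -0.44 (-0.71 to -0.17), and held 0 in all the others. Itgb5 was below 0 in 7 of the 9, from -0.72 to 0.08. The Itgb5 interval lay wholly below 0 only in the cycling subcluster, at -0.72 (-0.98 to -0.46), and the Gzma-led subcluster, at -0.24 (-0.46 to -0.02). It held 0 in the Hes1-led, Vcam1-led and Gpnmb-led subclusters.

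**Figure D5:**
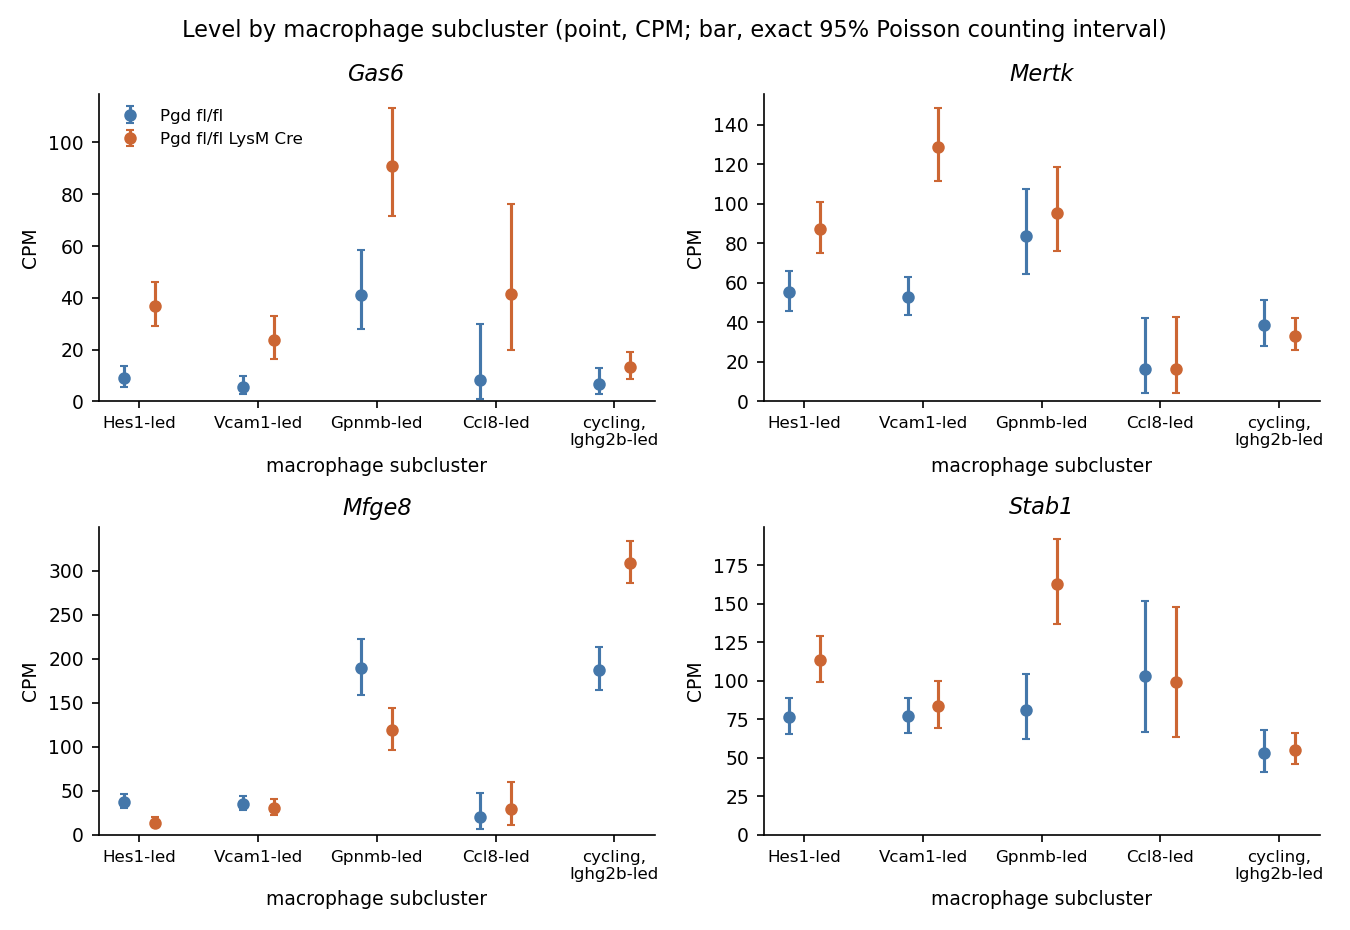
Level of Gas6, Mertk, Mfge8 and Stab1 in CPM in 5 subclusters that held macrophages, of which the cycling one was left unnamed. Points are the libraries (blue, fl/fl and orange, LysM Cre) and bars are exact 95% Poisson counting intervals. Gas6 is higher in LysM Cre in the Hes1-led subcluster (8.97 and 37.0 CPM), whereas Mfge8 is lower there (37.7 and 13.9 CPM) and higher in the cycling subcluster (188 and 309 CPM).

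Mfge8 was below 0 in 4 and above 0 in 2 of the 6 subclusters where it had 50 UMIs. It was lower in LysM Cre in the Hes1-led subcluster, at 37.7 and 13.9 CPM (log2 ratio -1.43, interval -2.10 to -0.81), and in the Gpnmb-led subcluster, at 189 and 119 CPM (-0.67, interval -1.05 to -0.29). It was higher in the cycling subcluster, at 188 and 309 CPM (0.72, interval 0.50 to 0.94). The UMIs were concentrated in few cells of the macrophage class: 12 of 731 in fl/fl and 17 of 729 in LysM Cre had at least 10 Mfge8 UMIs. These cells held 59.8% and 81.6% of the Mfge8 UMIs of the class. In those cells the Langerhans markers summed to 1402 and 2287 CPM, against 229 and 167 CPM in macrophages with no Mfge8 UMI, and the macrophage markers to 19660 and 4219 CPM, against 35040 and 31240 CPM. The epithelial markers, from a cell type that also held Mfge8, summed there to 612 and 985 CPM, against 20.5 and 18.8 CPM, and the cycling markers to 1416 and 2150 CPM, against 289.5 and 369 CPM. The marker lists were not specific: Epcam is in both the epithelial and the Langerhans list. Langerhans-like cells held 1461 and 1118 CPM of the epithelial markers, and neutrophils 1661 and 2308 CPM of the Langerhans markers. The macrophage markers of the 17 LysM Cre cells were below those of LysM Cre monocytes, at 5969 CPM. Their markers thus did not bear out the macrophage name of the class. The part of Langerhans-like, epithelial and cycling cells in the Mfge8 values was not tested. The cycling subcluster held 4 of the 12 cells in fl/fl and 15 of the 17 in LysM Cre. In LysM Cre, 1 cell of the macrophage class that fell in the Langerhans-like subcluster held 11.3% of the UMIs. When macrophages with UMIs of 2 or more Langerhans markers were left out, which kept 572 and 583 cells, Mfge8 was counted 279 and 186 times, for a log2 ratio of -0.77. It was -0.77 without the cycling cluster, and -2.57 without cells that had a lymphocyte marker UMI, where 144 and 30 UMIs remained in 183 and 206 cells. The direction of Mfge8 in macrophages thus depended on which cells were counted.

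In monocytes 7 members had at least 50 UMIs, and Mrc1 and Cd36 passed 1.5-fold, both higher in LysM Cre. Of 7255 genes, 8.24% were at least 1.5-fold higher and 3.63% at least 1.5-fold lower. Mrc1 was at 22.1 and 42.8 CPM, with UMI counts of 29 and 167 and a log2 ratio of 0.95 (0.38 to 1.57). Cd36 was at 25.9 and 44.6 CPM, with UMI counts of 34 and 174 and a ratio of 0.78 (0.24 to 1.36). Both counts rested on few cells: 5 cells held 62.1% and 35.3% of the Mrc1 UMIs and 76.5% and 39.7% of the Cd36 UMIs. When every cell was given the same weight, neither passed 1.5-fold, with ratios of 0.47 for Mrc1 and 0.11 for Cd36. Without cells that had a lymphocyte marker UMI, Cd36 was at 2.33, with 5 and 64 UMIs, and Itgav was at 0.92, with 12 and 58 UMIs, against 0.26 in all monocytes. The class was mixed: at resolution 1.6 a cluster led by Ly6i and Cd209a (107 and 285 cells) stood apart from a non-classical one led by Chil3, with Ace (22 and 43 cells). In the Plac8-led myeloid subcluster, which scored highest for monocytes, Cd36 was at 30.2 and 69.0 CPM (1.19, interval 0.61 to 1.82). Mrc1 was there at 38.6 and 56.8 CPM (0.56, interval 0.02 to 1.13), under 1.5-fold. Axl, the member most often detected in monocytes, was at 152 and 142 CPM, with a ratio of -0.10 (-0.33 to 0.14). Gas6 was nearly absent, with 0 and 4 UMIs, where 3 UMIs would be 2.29 and 0.769 CPM.

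Mfge8 was counted in 98.1% and 96.0% of Langerhans-like cells and in 35.0% and 46.7% of DCs, while in both classes Gas6, Pros1, Mertk and Mrc1 were each counted at most 5 times per library. In DCs 4 members had 50 UMIs, and Axl and Itgav were past 1.5-fold, both higher in LysM Cre, against 8.35% of 6015 genes higher and 2.33% lower. Pgd itself, at 24.1 and 21.8 CPM in DCs, did not differ between the libraries beyond counting error. Itgav was at 35.7 and 63.0 CPM, a log2 ratio of 0.82 (0.34 to 1.32). Axl had 21 and 55 UMIs, of which 5 cells held 90.5% and 45.5%, and its ratio of 0.70 had an interval, -0.05 to 1.504, that held 0. Without the cells of highest Scrublet (doublet) score, Itgav was at 0.51 and Axl, with 7 and 35 UMIs, was under the minimum for a call. Without cells that had a lymphocyte marker UMI, Itgav was at -0.33, with 10 and 8 UMIs, and Axl was counted 1 and 17 times. Mfge8 was at 615 and 674 CPM, a ratio of 0.13 (0.01 to 0.26). Without cells that had a lymphocyte marker UMI, 45 DCs were left in each library and the Mfge8 ratio was 1.56; 5 cells held 61.7% and 41.3% of the UMIs of the whole class. Nearly all of them lay in the mature DCs, led by Fscn1 and Ccr7, at 1115 and 1203 CPM, whereas the cDC1, led by Xcr1, had 1 and 4 UMIs. Cd36 had the reverse pattern, at 97.0 and 85.7 CPM in cDC1 and 6.72 and 4.07 CPM in mature DCs.

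In Langerhans-like cells 3 members had 50 UMIs, and only Axl, with 19 and 51 UMIs, passed 1.5-fold, at 14.5 and 25.1 CPM (log2 ratio 0.79, interval 0.01 to 1.63), and 5 cells held 84.2% and 45.1% of these UMIs. Of 5961 genes in this class, 4.43% were at least 1.5-fold higher and 4.73% at least 1.5-fold lower. The Axl ratio was -0.30 without cells that had a lymphocyte marker UMI, where 13 and 22 cells were left. Mfge8, with 1401 and 2609 UMIs, had a ratio of 0.26 (0.17 to 0.36), which was 0.01 with every cell weighted the same and -0.62 without cells that had a lymphocyte marker UMI. Mertk had 0 and 2 UMIs and Gas6 none in either library, where 3 UMIs would be 2.29 and 1.48 CPM.

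Neutrophils gave no member with 50 UMIs. Itgav was counted 12 and 7 times, Itgb5 2 and 4 times, Mfge8 1 and 2 times, and Axl and Stab1 once each in fl/fl, while Gas6, Pros1, Mertk, Mrc1 and Cd36 were not counted. The median neutrophil held 2244 and 2113 UMIs, and for the genes that were not counted the limit of 3 UMIs would be 20.6 and 17.4 CPM. In the Retnla-led cells, of which there were 15 and 47, Pros1 was counted 1 and 21 times. Cd36 was at 158 and 88.9 CPM, a log2 ratio of -0.83 whose interval, -1.71 to 0.11, held 0, and Mrc1 had a ratio of 0.38 (0.03 to 0.75).

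Most of the wider efferocytosis machinery differed little between the libraries in macrophages, with a median log2 ratio of -0.0004. Of 104 listed genes of the pathway that are not members, 85 had 50 UMIs, 3 were at least 1.5-fold higher and 1 at least 1.5-fold lower in LysM Cre, against the 5.25% and 2.89% of all genes given above, and 42 ratios were above 0 and 43 below. Of all genes tested, 60.4% were above 0, with a median of 0.07. The 3 higher genes all belonged to the 17 tested phosphatidylserine and scavenger receptors, whose median log2 ratio was 0.14: Itgb3 at 0.99 (0.25 to 1.76), Lrp1 at 0.63 (0.50 to 0.77) and Scarb1 at 0.59 (0.27 to 0.92). Lrp1 binds calreticulin on dying cells, and Scarb1 takes up lipoprotein cholesterol. Cd300lb, a receptor for phosphatidylserine, followed at 0.56. Among 10 bridging molecules and opsonins 9 ratios were below 0, with a median of -0.19; C1qa was at 5320 and 4339 CPM (-0.29) and Anxa1, a phosphatidylserine-binding annexin, at 109 and 80.2 CPM (-0.45). Dock1, an exchange factor for Rac in engulfment, was the lowest, at 12.6 and 7.35 CPM (-0.77, interval -1.21 to -0.34), while the 14 engulfment genes had a median of 0.09. Gpr132, a receptor for lysophosphatidylcholine, was at -0.46 and Atg7, needed for LC3-associated phagocytosis, at -0.41. The 17 phagosome and digestion genes had a median of 0.04, the 16 lipid handling genes -0.02, the 6 receptors for find-me signals -0.0048 and the 5 tested do-not-eat-me and shedding genes -0.0004. Tyro3, the remaining TAM receptor, had 3 and 2 UMIs and Timd4, a phosphatidylserine receptor of resident macrophages, 1 and 4 UMIs, so neither was measurable here.

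Within single macrophages, ligand and receptor were seldom counted together. After thinning, a Gas6 and a Mertk UMI were found in the same cell in 2 of 691 fl/fl and 6 of 682 LysM Cre macrophages. Of the Gas6-positive cells, 9.52% and 12.5% also had Mertk, against 11.7% and 17.2% of all macrophages, so no excess was seen at this depth. Mertk and Axl UMIs were found together in 5.93% and 8.36% of cells. Of the Itgav-positive macrophages, 54.1% and 52.9% had an Itgb5 UMI, against 53.0% and 46.8% of all. A macrophage had a UMI of a median of 2 members, and 10.1% and 12.02% had none, while 8.10% and 13.9% had at least 4.

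To place the members among other genes, levels on the log2(CPM + 10) scale were correlated across 31 profiles, the myeloid subclusters of each library, over 11388 genes. The profiles share libraries and differ in depth, so the values are descriptive. Nearest to Gas6 were Fcrls (Pearson's r = 0.89), Stard8 (0.87) and Arhgap10 (0.87). Nearest to Mertk were Abca1 (0.94), the cholesterol exporter, Blnk (0.93) and Dab2 (0.92). Axl lay nearest to Cfb (0.97), C1qb (0.96) and Cybb (0.95), and Itgb5 to Apoe (0.98), Ms4a7 (0.96) and Acp5 (0.96). Stab1 lay nearest to Selenop (0.96), Gna12 (0.95) and Tmem37 (0.95), Mrc1 to Canx (0.94), Pltp (0.92) and Parvb (0.91), and Cd36 to Psap (0.83), Ckb (0.83) and Gatm (0.82). Mfge8 went with genes of the Langerhans-like cells, Hapln3 (0.90), Plek2 (0.89) and St14 (0.84). Itgav, nearest to Mgat5 (0.74), Rhbdf2 (0.73) and Slc11a2 (0.73), and Pros1, nearest to Slc16a13 (0.75), Snx7 (0.74) and Sept8 (0.72), had no close neighbor.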

How the data were processed

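Live cells from AT3 tumors had been processed with feature barcodes, and the authors made the deposited UMI counts per gene and cell barcode with Cell Ranger 6.1.2 on mm10. These are raw counts, 1 library per genotype with 10 mice pooled. The 12 multiplexing oligonucleotides were left out. Cells were kept at 500 to 7500 genes and a mitochondrial share of up to 15%, as in the study's methods, which left more cells than the study analysed. Cells were clustered in Seurat 5.3.0 (R 4.3.3; 2000 variable genes less the members, 30 components, 20 neighbors, resolution 0.8), and the myeloid cells again. A cluster was named by its best marker score with at least 3 markers found in 25% of its cells and a lead of 0.1 over the next class, limits set after the data had been seen. Scrublet called 5 and 1 doublets, too few to have worked, so doublets were not removed; leaving out the highest 5% of scores was an alternative.

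UMIs were summed per class and library and given as CPM with exact Poisson 95% intervals. Ratios carry the exact conditional interval of the UMIs; a call needed 50 UMIs over both libraries and 1.5-fold. Shares have Clopper-Pearson intervals. A count of 0 was bounded by 3 UMIs. Scripts were tested on simulated data. edgeR 4.0.16 and DESeq2 1.42.0 gave scaling alternatives only. Named besides the members were the 4 highest and 4 lowest genes of the pathway list in macrophages with Timd4, Tyro3, C1qa and Itgb3, and the 3 genes of highest correlation to each member. The members and lists were chosen with earlier results of these data known. PCR and pooling add error that no interval covers.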

Additional observations from a re-analysis of the deposited data

Results flagged for a closer look

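Several members were past 1.5-fold upward in some myeloid cells and downward in others. With 1 library per genotype the difference between the populations was not tested, and the values are given as they stand. Mfge8 had a log2 ratio of -1.43 in the Hes1-led and -0.67 in the Gpnmb-led macrophage subcluster, and 0.72 in the cycling subcluster led by Ighg2b. In that subcluster the Langerhans markers summed to 667 and 729 CPM, against 139 and 143 CPM in the Hes1-led subcluster, and their part was not tested. Mrc1 had a ratio of 0.66 in the Vcam1-led subcluster and of -1.09 in the cycling subcluster. The macrophage markers of the cycling subcluster summed to 19370 CPM in Pgd fl/fl and 14850 CPM in Pgd fl/fl LysM Cre, and those of the Vcam1-led subcluster to 36680 and 36570 CPM. Cd36 had a ratio of 0.78 in monocytes, which was 0.11 with every cell weighted the same. In the unnamed Retnla-led cells its ratio was -0.83 (-1.71 to 0.11), where 17 and 33 UMIs were counted in 15 and 47 cells. In the Retnla-led myeloid subcluster, with 8 and 28 UMIs, the ratio was -0.25 (-1.42 to 1.09). Both of these intervals held 0.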

How the results depend on the processing

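No paired analysis was possible because each genotype was 1 library. The Gas6 ratio in macrophages was above 0 in all 14 alternatives, as were those of Pros1, Mertk, Itgav and Stab1; the cause of each change below was not tested. The 1 member past 1.5-fold in macrophages became 2 with members among the clustering genes, after thinning, with subclusters reweighted, and without lymphocyte-led subclusters; 3 without cells that had a lymphocyte marker UMI or when scaled without mitochondrial and ribosomal genes; and 4 with every cell weighted the same, without the cycling cluster or without cells that had 2 or more Langerhans markers. Mfge8 is among the 3 or 4 without lymphocyte marker, cycling or Langerhans marker cells and was lower there (-2.57, -0.77 and -0.77); the others were higher. The 4 pathway genes past 1.5-fold in macrophages became 9 without cells that had a lymphocyte marker UMI, 2 under TMM or median-of-ratios scaling, and 13 with no minimum of UMIs. In monocytes the 2 members became 1 after thinning and 0 with every cell weighted the same, and 3 in 5 other settings: with Mfge8 added (no cell filter, highest Scrublet scores left out), with Itgav added (lymphocyte marker cells or lymphocyte-led subclusters left out), and with Gas6 and Mertk added and Cd36 lost (Retnla-led cells counted in). In DCs Axl and Itgav became 1 member, Axl, with every cell weighted the same, 1 other member, Mfge8, without cells that had a lymphocyte marker UMI, and 0 after thinning or without the highest Scrublet scores. In Langerhans-like cells the 1 member, Axl, became 0 after thinning and 1 other member, Mfge8, without cells that had a lymphocyte marker UMI. Without cells that had a lymphocyte marker UMI, Itgav in DCs (-0.33) and, in Langerhans-like cells, Axl (-0.30) and Mfge8 (-0.62) were reversed. The settings without the cycling cluster, the lymphocyte-led subclusters or the cells with Langerhans markers, and the Retnla-led cells counted as monocytes, were chosen after seeing the data.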
